A study of Homo sapiens with 2 samples.

Results

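The family of miR-103 and miR-107 was represented by 4 of the 1273 human microRNA (miRNA) probes on the array: hsa-miR-103a-3p, hsa-miR-107, hsa-miR-103a-2-5p and hsa-miR-103b. They were taken by name, with any arm of miR-103a, miR-103b or miR-107 admitted whatever its value. The RNA came from H460 cells, a human non-small cell lung cancer line grown in DMEM with serum. One culture group had been given vehicle and the other sulforaphane, an isothiocyanate found in broccoli and its relatives and known as an activator of the transcription factor NRF2, and both were taken after 48 hours. Each group was 1 Hy3-labelled miRCURY LNA array, and the sources used here state no dose. With 1 array per group no spread between cultures can be estimated, no test of a difference is possible and no p-value is given. H460 is a single tumour line, and since RNA was extracted in bulk, a change in RNA per cell cannot be told apart from a change in the makeup of the culture.

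miRNAs guide Argonaute proteins to messenger RNAs through the seed, bases 2 to 8 from the 5′ end, and repress them. The genes for miR-103a and miR-107 lie in introns of the pantothenate kinase (PANK) genes, whose enzymes catalyse the first step of coenzyme A synthesis. The family is known for repressing caveolin-1 and so insulin signalling in mouse liver and fat, and for repressing DICER1, the enzyme that cuts miRNA precursors, in human breast cancer cells. miR-107 is also known as a p53-responsive miRNA in human colon cancer cells, where it represses the hypoxia partner HIF1B (ARNT).

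The mature sequences are shown because they set what each probe can and cannot separate. They are from RefSeq on GRCh38.p14, are written 5′ to 3′, and have the seed in capitals.
hsa-miR-107: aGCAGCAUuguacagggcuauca
hsa-miR-103a-3p: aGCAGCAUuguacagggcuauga
hsa-miR-103a-2-5p: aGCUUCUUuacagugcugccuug
hsa-miR-103b: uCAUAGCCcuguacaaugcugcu
All 4 members matched an entry in the RefSeq table. miR-107 and miR-103a-3p have the same seed and are identical at 22 of 23 bases. The substitution from miR-103a-3p to miR-107 is G22C, counted from 1 at the 5′ end. The array files do not hold probe sequences, and the share of each signal that comes from the other miRNA was not tested. miR-103b is the exact reverse complement of miR-103a-3p over all 23 bases, since it is read from the opposite strand of the same genes.

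miR-107 lies at chr10:89592756-89592778 on the minus strand, within PANK1 and on the strand of that gene. miR-103a-3p has 2 source genes with identical mature sequence. One is MIR103A1 at chr5:168560904-168560926, on the minus strand within PANK3. The other is MIR103A2 at chr20:3917541-3917563, on the plus strand within PANK2. A single probe cannot separate the output of these copies. The miR-103b genes occupy the same bases on the opposite strand. The precursor hairpins show how alike the loci are outside the mature arm, which is in capitals.
MIR107: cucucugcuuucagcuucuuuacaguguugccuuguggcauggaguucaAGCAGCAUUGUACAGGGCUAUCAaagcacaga
MIR103A1: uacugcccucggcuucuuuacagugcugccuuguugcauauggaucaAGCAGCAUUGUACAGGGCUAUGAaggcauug
MIR103A2: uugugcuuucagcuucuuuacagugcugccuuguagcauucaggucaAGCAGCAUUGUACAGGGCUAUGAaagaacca
The 5′ arms are alike too. miR-103a-2-5p differs from miR-103a-1-5p, which has no probe of that name among those analysed here, by A1G alone. It differs from the matching stretch of the MIR107 hairpin by C16U alone, so its probe need not report MIR103A2 only.

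Values are the authors' normalized intensities, background-subtracted intensity divided by 1 factor per array. A probe was called detected where it exceeded a floor, the 95th percentile of that array's probes for viral miRNAs, 6.44 with vehicle and 5.52 with sulforaphane. That left 168 human probes detected on both arrays. Their median log2 ratio, sulforaphane over vehicle, was 0.38 rather than 0, with quartiles of 0.12 and 0.54, and 82.7% lay above 0. The 41 detected spike-in probes had a median of 0.68 ± 0.20 (SD between probes). A member's ratio is therefore read against these levels. No epithelial marker was above the floor on either array (0 of 7). Of 5 miRNAs raised in lung carcinoma, 4 were above it on both, with a median log2 ratio of -0.13 and 3 of the 4 below 0. The remaining one, miR-96-5p, read higher with sulforaphane (5.66 and 8.29) and was above the floor on that array alone. The part of these markers in the family's values was not tested.

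Both mature 3′ arms were detected on both arrays and, on the authors' scale, read higher with sulforaphane (with the spike-in probes held constant, miR-103a-3p turned to -0.05 on the log2 scale), while neither the 5′ arm nor miR-103b was detected on either array. The probe for miR-103a-3p, the arm that carries the family seed, read 34.2 with vehicle and 52.8 with sulforaphane. That is a 1.54-fold higher value, a log2 ratio of 0.63. The spot lay well clear of the floor, at 5.32 times it with vehicle and 9.57 times with sulforaphane. Before scaling it measured 3815.5 and 6545 background-subtracted units over local backgrounds of 40.5 and 64.5.

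The probe for miR-107, the copy within PANK1, read 7.20 with vehicle and 11.7 with sulforaphane, a 1.62-fold higher value and a log2 ratio of 0.70. With the spike-in probes held constant that log2 ratio was 0.02. The spot sat close to the limit on the vehicle array, at 1.12 times the floor, and at 2.12 times with sulforaphane. Its background-subtracted intensities were 802.5 and 1450 units over local backgrounds of 43.5 and 59. Local backgrounds rose on the whole array, with medians of 41 and 61 units, so those of both spots were near the rest of their array.

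The log2 ratios of miR-107 and miR-103a-3p differed by 0.07, less than the 0.20 spread of the spike-in probes. As binding of each miRNA to the other's probe was not tested, the pair is not counted here as 2 independent measurements.

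**Figure D1:**
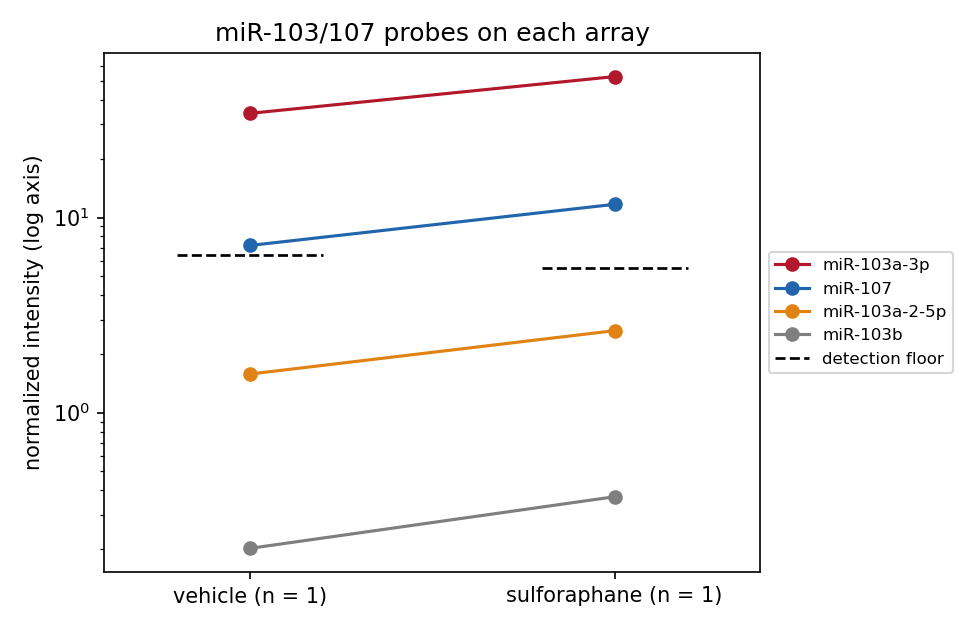
Normalized intensity (log axis) of the 4 family probes on the vehicle and sulforaphane arrays, 1 array each, with lines joining the values of a probe and dashes for each array's detection floor. miR-103a-3p and miR-107 lie above the floor on both arrays, miR-107 by 1.12 times with vehicle, and the other probes lie below it on both.

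The 5′ arm, miR-103a-2-5p, usually the passenger strand, read 1.58 with vehicle and 2.63 with sulforaphane, or 0.245 and 0.477 times the floor. Its measured log2 ratio of 0.74 is not a fold change of a detected miRNA. Among the 20 human probes nearest to it in brightness, with no floor applied, the median was 0.14, the range ran from -1.90 to 1.56, and 2 were higher. Probes this dim thus spread over more than the size of the measured ratio.

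The antisense miR-103b read 0.202 and 0.371, at 0.0314 and 0.0673 times the floor, from 22.5 and 46 background-subtracted units. Its measured log2 ratio of 0.88 was the highest of the family and matched its surroundings: the 20 human probes nearest in brightness had a median of 0.93, and 12 of them were higher. The 7 negative control probes, with medians of 0.238 and 0.371, had a median log2 ratio of 0.80. A difference in miR-103b was not detectable at this signal.

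Relative to all detected human probes, both 3′ arms lay in the upper part of the ratios without reaching the 2-fold size rule. miR-107 ranked 14 and miR-103a-3p ranked 23 of 168 from the highest ratio. With the floor added before the logarithm the ranks were 50 and 15, and under quantile normalization they were 11 and 44. They exceeded the median of detected probes by 0.32 and 0.24 on the log2 scale. The share of all detected probes past 2-fold was 3.57% for higher values and 1.19% for lower ones, and 0 of the 2 detected members were in either class. At 1.5-fold on the authors' scale the shares were 16.1% and 2.98%, and both members were in the higher class, miR-103a-3p by a narrow margin. Neither was in that class under summed-intensity, quantile, spike-in or small RNA scaling, or with the floor added. Those alternatives also lowered the median of all detected probes, to 0.04, 0.02, -0.29, 0.13 and 0.22 in that order. The share of all probes past 1.5-fold is given for the authors' scale alone, so leaving the class cannot be called particular to the members. With only 2 probes that share 22 of 23 bases, the count of members past 1.5-fold carries little weight.

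The members were then compared with probes of similar brightness. Of the 20 detected probes nearest to miR-103a-3p in mean log2 intensity, 19 had a ratio above 0 and 2 had a ratio above its own, miR-7-5p (0.88) and miR-19a-3p (0.79). Their median was 0.37, so miR-103a-3p stood 0.26 higher, about as far as their SD of 0.24. The 5 closest were miR-130a-3p (0.29), let-7b-5p (0.43), miR-15b-5p (0.49), miR-15a-5p (0.38) and miR-3182 (-0.17).

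The neighbours of miR-107 were more scattered. Their log2 ratios ran from -1.09 to 0.78 with an SD of 0.52. The median was 0.45, and miR-107 lay 0.25 above it, less than 1 SD. Of the 20, 6 fell below 0, and 2 were higher than miR-107, miR-431-5p (0.78) and miR-299-5p (0.73). The 5 closest were miR-99b-5p (0.42), miR-505-5p (-0.96), the shared probe for miR-378a-3p, miR-378c and miR-378d (0.52), miR-151a-3p (0.51) and miR-183-3p (0.35). The gap depended on how many neighbours were taken, and against the 10 nearest it was 0.53.

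**Figure D2:**
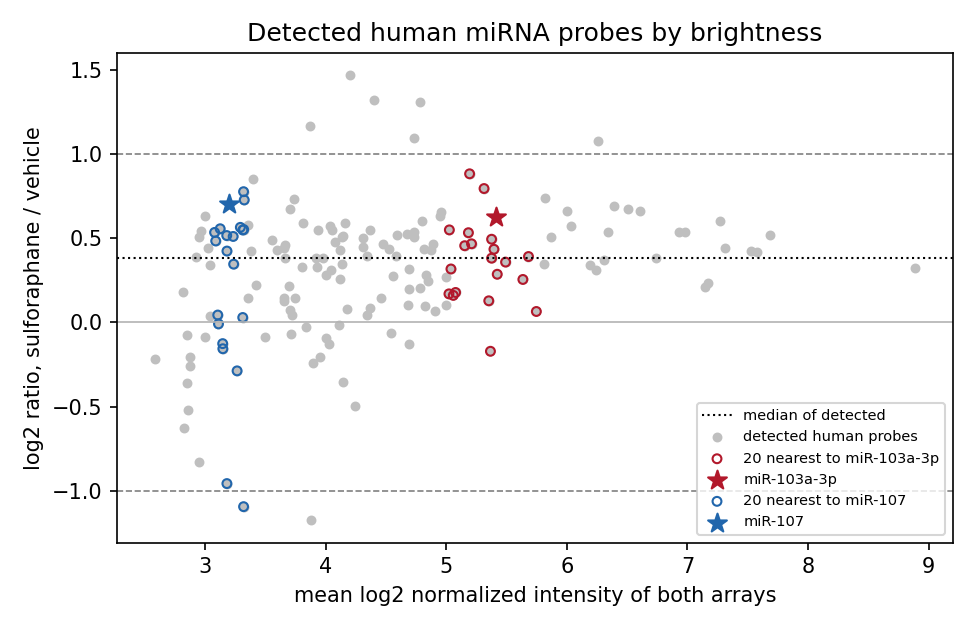
Log2 ratio, sulforaphane over vehicle, against the mean log2 normalized intensity of both arrays for the 168 detected human probes, with miR-103a-3p and miR-107 as stars and the 20 nearest probes of each as open circles. Dashed lines mark 2-fold and the dotted line the median of 0.38; both stars lie above that median and below 2-fold, and 2 of 20 neighbours lie higher in each case.

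Likeness of pattern was measured as the Euclidean distance over the log2 values of the 2 arrays, among human probes outside the family. The probe most like miR-103a-3p was miR-15b-5p at a distance of 0.10 (34.99 with vehicle and 49.3 with sulforaphane), followed by let-7b-5p (0.14), miR-15a-5p (0.18), miR-19a-3p (0.18) and the maker's sequence miRPlus-A1087 (0.22). For miR-107 these were the shared miR-378 probe at 0.13 (7.58 and 10.8), miR-151a-3p (0.14), miR-1976 (0.14), miRPlus-C1110 (0.17) and miR-431-5p (0.18). With 2 arrays, such a match says that brightness and ratio were similar and no more.

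The nearest relatives by sequence are miR-15 and miR-16, repressors of cyclins and of BCL2. Their seed holds the same 6 bases, GCAGCA, shifted by 1 position. The sequences are shown to make that shift visible, again with bases 2 to 8 in capitals.
hsa-miR-16-5p: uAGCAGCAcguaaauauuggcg
hsa-miR-15a-5p: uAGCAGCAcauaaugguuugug
hsa-miR-15b-5p: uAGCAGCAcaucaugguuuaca
Of 8 relatives on the array, 3 were detected on both arrays and 0 of these reached 1.5-fold, beside 16.1% of all detected probes. miR-16-5p read 69.6 and 90.02 (log2 ratio 0.37), miR-15a-5p 36.4 and 47.4 (0.38), and miR-15b-5p 34.99 and 49.3 (0.49). All 3 ratios were below those of miR-103a-3p (0.63) and miR-107 (0.70). The gap between miR-15b-5p and miR-103a-3p is smaller than the spike-in spread of 0.20. The other gaps were larger, that between miR-15b-5p and miR-107 barely so. All gaps to miR-107 were smaller than the SD of 0.52 among its neighbours in brightness. The median of the 3 relatives, 0.38, equals that of all detected probes to 2 decimals. The other relatives, miR-195-5p, miR-424-5p, miR-497-5p, miR-503-5p and miR-646, were below the floor on both arrays.

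Among 17 miRNAs known for insulin and lipid metabolism, 10 were detected, 9 of them with a ratio above 0 on the authors' scale against 82.7% of all detected probes. Their median log2 ratio was 0.47, beside 0.38 for all. On that scale none reached 2-fold (3.57% of all detected probes were higher by that much) and 4 reached 1.5-fold (16.1% of all). Only miR-29b-3p (0.66, from 51.0 to 80.6), of the miR-29 family that is raised in diabetic rat tissues, exceeded miR-103a-3p. The others past 1.5-fold, each by a narrow margin, were miR-27a-3p (0.60), miR-27b-3p (0.59) and miR-378a-3p (0.59, from 14.5 to 21.9). The shared probe for miR-378a-3p, miR-378c and miR-378d did not reach 1.5-fold (0.52, from 7.58 to 10.8). miR-378a lies in an intron of PPARGC1B, a mitochondrial coactivator. miR-33b-5p, from an intron of the lipid regulator SREBF1, read 13.2 and 17.2 (0.38). Its paralogue miR-33a-5p was below the floor on both arrays (2.54 and 4.62). miR-335-5p went the other way, from 8.18 to 6.38 (log2 ratio -0.36).

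The p53-responsive list gave little to set beside miR-107. Of 9 such miRNAs, 1 was detected, miR-34a-5p, which represses cell cycle genes (23.2 and 28.9, log2 ratio 0.32). That is 0.07 below the median of detected probes (difference -0.07), where miR-107 was 0.32 above it. Of 9 miRNAs that, like this family, are known to repress DICER1 or carry the let-7 seed, 6 were detected on both arrays, all of the let-7 family. Their ratios ran from 0.09 (let-7a-5p) to 0.54 (let-7i-5p) with a median of 0.37, and 0 of the 6 exceeded either miR-103a-3p or miR-107. A further 3 were above the floor with sulforaphane alone, where the floor was lower (5.52 against 6.44). Of all 1273 human probes, 226 were above it on either array and 168 on both. The share of all probes above it with sulforaphane alone is not given, so the 3 are not read as a result.

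**Figure D3:**
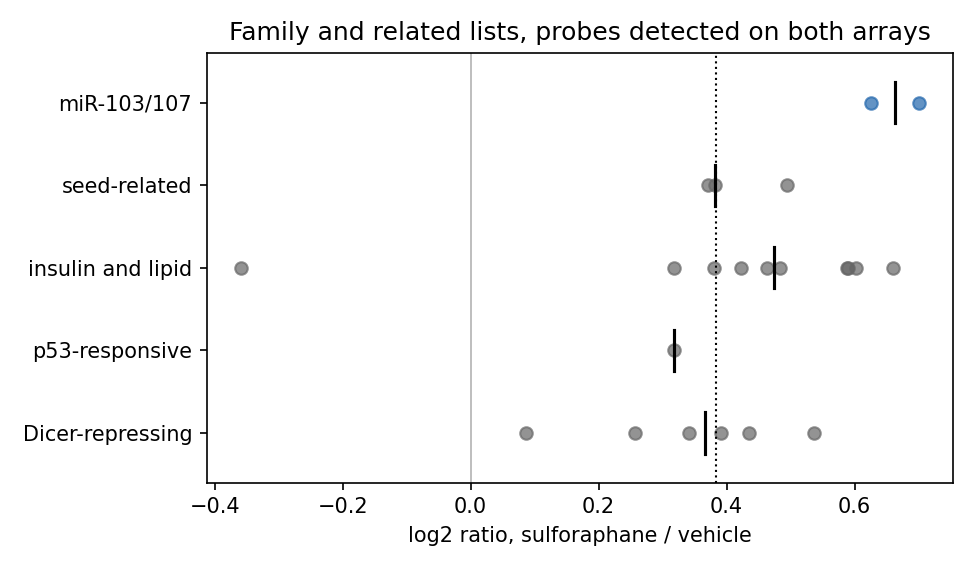
Log2 ratio, sulforaphane over vehicle, of each detected probe (points) in the family and in the related lists, with list medians as bars, 0 as a grey line and the median of all detected probes, 0.38, as a dotted line. The family's 2 points, 0.63 and 0.70, lie to the right of every seed-related, p53-responsive and Dicer-repressing point, and 1 insulin and lipid point lies between them.

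The direction of the detected members' ratios depended on what was held constant between the arrays. On the authors' scale the detected miR-103a-3p and miR-107 were at 0.63 and 0.70. With the spike-in probes set to a median ratio of 0, miR-103a-3p was at -0.05 and miR-107 at 0.02, both close to 0. With the small nucleolar, small nuclear and ribosomal RNA probes held at 0 they were at 0.37 and 0.45. A shift of the whole array cannot change the position of a probe relative to others, so only 3 of the 9 alternatives bear on it: quantile normalization, foreground intensities and the added floor. Under these miR-103a-3p lay 0.16 to 0.30 above the median of detected probes and miR-107 lay 0.11 to 0.45 above it, while their ranks moved as given above. Without replicate arrays neither excess can be set against the variation between cultures.

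**Figure D4:**
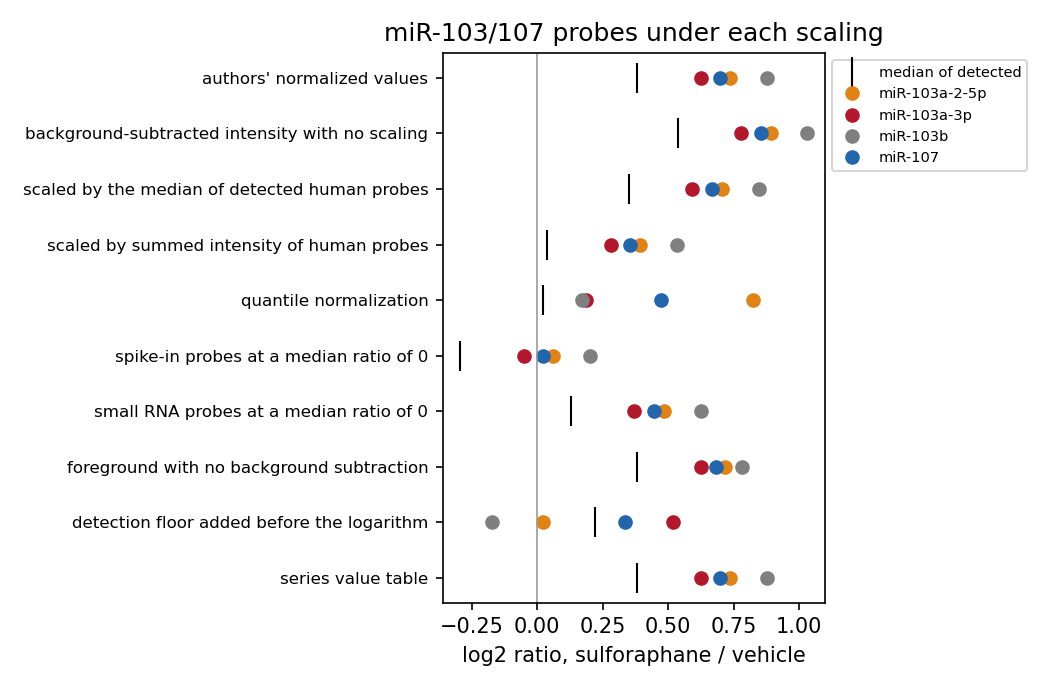
Log2 ratio, sulforaphane over vehicle, of the 4 family probes (coloured points) on the authors' scale and under 9 alternatives, with the median of detected human probes as a black bar and 0 as a grey line. miR-103a-3p and miR-107 lie to the right of the bar in every row, while under spike-in scaling they lie at -0.05 and 0.02.

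Host transcripts were not measured on these arrays. In RefSeq windows of 300 bases around gene starts, the antioxidant response element TGACNNNGC, through which NRF2 acts, was searched on both strands. It was found in 0 of 2 windows of PANK1, 1 of 5 of PANK2 and 0 of 1 of PANK3, against 13.3% of all 35116 windows. The windows of PANK2 overlap, and a match in these letters is a description of the sequence alone.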

How the data were processed

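Per the labels' protocols, total RNA from TRIzol and a miRNeasy kit was labelled with Hy3 for miRCURY LNA arrays. Per the file headers, the authors' deposited workbook holds each probe's foreground intensity, its background-subtracted intensity, and a normalized value with its fold. The normalized value is a ratio: background-subtracted intensity divided by 111.5 (vehicle) or 124 (sulforaphane), for all 2661 probes. The sources used here do not say how these factors were chosen. The deposited series table holds the same ratio values to within 4.9e-08.

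The log2 ratio used no added value. Detection used the 95th percentile of 143 viral probes on each array. Brightness neighbours were the 20 detected human probes nearest in mean log2 value, with the family left out. Named miRNAs were all members, the 5 nearest in brightness and the 5 most alike in pattern of each detected member, and the detected members of the lists. miR-195-5p, miR-424-5p, miR-497-5p, miR-503-5p, miR-646, miR-33a-5p and miR-96-5p were named after their values were seen, as were the neighbours with higher ratios than a member. Members and lists were chosen with earlier results of these data known. No member was saturated. The neighbour calculation was run on simulated data. The planted shift was larger and the noise smaller than in these arrays, so that run checked the calculation alone. Foreground medians were 128.5 and 163.5 units, and 1 array per group limits the precision. Alternatives were other scalings, floors, neighbour numbers and size rules. Calculations used Python 3.11.15, numpy 2.4.6 and pandas 2.3.3.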

Additional observations from a re-analysis of the deposited data

How the results depend on the processing

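No paired analysis was possible because each group held 1 array. A log2 ratio was taken to have moved where it shifted by more than 0.20, the spread of the spike-in probes. On that measure miR-103a-3p kept its ratio under 5 of 9 alternatives, miR-107 under 4, miR-103a-2-5p under 5 and miR-103b under 4. These counts overstate stability, as some alternatives could not have moved any ratio. The deposited series table held the same values. No scaling, and scaling by the median of detected probes, shifted every probe alike by less than 0.20. Summed-intensity scaling gave 0.28 for miR-103a-3p, 0.36 for miR-107, 0.39 for miR-103a-2-5p and 0.53 for miR-103b. Quantile normalization gave 0.19 for miR-103a-3p, 0.47 for miR-107 and 0.17 for miR-103b. Spike-in scaling gave -0.051, 0.024, 0.062 and 0.20 in the same order of 4 probes, and small RNA scaling 0.37, 0.45, 0.48 and 0.62. Adding the floor before the logarithm gave 0.34 for miR-107, 0.024 for miR-103a-2-5p and -0.17 for miR-103b. The sign thus turned for miR-103a-3p under spike-in scaling and for the undetected miR-103b with the floor added. The second follows from the lower floor on the sulforaphane array. The other ratios also fell under that setting, most for dim probes such as miR-107 and miR-103a-2-5p. An added value shrinks the ratio of a dim probe even where it is equal on both arrays, and here the floors were also unequal. These effects were not separated.

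The excess of miR-103a-3p over its neighbours was 0.18 to 0.32 under 16 alternatives, and that of miR-107 was 0.16 to 0.53, with the highest, 0.53, against the 10 nearest. Scalings by 1 factor per array could not change either excess, so those among the 16 say nothing of stability. Other detection floors also left that of miR-103a-3p unchanged. Taking neighbours with no floor was added after seeing the data. For miR-103a-3p it gave the same neighbour values, so it says nothing of stability. For miR-107 the excess stayed at 0.25, while the highest neighbour ratio went from 0.78 to 1.43 and the SD from 0.52 to 0.58. With the floor at the 99th percentile of viral probes (20.6 and 23.2), miR-107 was no longer detected and miR-103a-3p was.

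The counts of detected probes at least 2-fold higher and lower were 6 and 2. They were 1 and 4 under summed-intensity scaling and under quantile normalization, 0 and 9 under spike-in scaling, 3 and 4 under small RNA scaling, 2 and 0 with the floor added, 1 and 0 at the 99th percentile floor, and 10 and 13 with detection on either array. At 1.5-fold they were 27 and 5, at 3-fold 0 and 0, and without scaling 8 and 1. These counts come from 1 pair of arrays with no test. Signal over background limits the 5′ arm and miR-103b, which have no measurable fold.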

Other observations

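One miRNA of the Dicer-repressing list lay outside the values above. miR-630, a stress-responsive miRNA that represses DICER1 under hypoxia in human cancer cells, exceeded the floor on the sulforaphane array only (3.61 with vehicle, 8.83 with sulforaphane). Against the vehicle floor it was at least 1.37-fold higher on the authors' scale. With the spike-in probes held constant its sulforaphane value was 5.53, below that floor, and no bound remains. It was picked out once its value was known, and the other list members above the floor with sulforaphane alone were let-7c (5.27 and 7.17) and let-7f-5p (4.96 and 6.13).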
